A study of Homo sapiens with 4 samples.

Results

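The enzymes of the kynurenine pathway were followed in spheres of U87MG, an established human glioblastoma cell line. They comprise 9 genes, IDO1, TDO2, AFMID, KMO, KYNU, KYAT1, KYAT3, HAAO and QPRT, taken by name from 60617 genes in each table. The set was chosen by its place in the pathway, and it was proposed with the CPM values and fold changes of this contrast known. The spheres were grown in DMEM/F12 that contained 20 ng/ml of EGF, 20 ng/ml of bFGF, N2 supplement and B27 supplement at 2%. Of the libraries, 2 came from spheres kept with abemaciclib, a drug that blocks the cell cycle kinases CDK4 and CDK6, and 2 from untreated spheres. Both groups were labelled with a time of 14, which the series text gives as days of treatment. The dose, and whether the untreated spheres received the solvent, are not stated in the sources used here. The labels name 1 cell line and no separate cultures, so the spread between libraries may be technical.

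The pathway is the main route by which cells break down the amino acid tryptophan. IDO1, TDO2 or IDO2 open the indole ring, AFMID releases kynurenine, and kynurenine then goes one of several ways. KMO hydroxylates it on the branch toward quinolinic acid and NAD, KYNU cleaves it or its hydroxylated form to anthranilic acids, and the aminotransferases KYAT1, KYAT3, AADAT and GOT2 turn it into kynurenic acid. HAAO and QPRT complete the branch toward NAD. In brain, KMO is known mainly from microglia, and kynurenine made by gliomas through TDO2 is known as a ligand of the aryl hydrocarbon receptor.

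The abemaciclib libraries held 23684260 and 33226884 expected counts, against 27485206 and 33418075 in the untreated libraries. Mitochondrially encoded genes took 11.7% to 11.8% of the counts in abemaciclib libraries and 4.27% to 4.66% in untreated ones. The 2 libraries of each group were further apart than counting noise alone (chi-square per degree of freedom 1.95 for the abemaciclib pair and 3.56 for the untreated pair). Each library counted as 1 sample, though this spread does not show that the libraries came from separate cultures. Of the 10 glioblastoma line markers examined, 8 passed the filter on low counts, VIM, NES and CD44 among them, and all 8 were called lower with abemaciclib, as were 39.3% of all tested genes, while the astrocytic markers GFAP and S100B stayed at or below 0.295 CPM (a gene's count per library total of fixed size, adjusted by TMM factors) in every library. Messenger RNA was measured in bulk, so fewer cells of a kind and less RNA per cell cannot be told apart.

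KMO and KYNU, which meet at the branch point, were the members with the highest and the lowest log2 fold change, and their promoter windows are shown here with that of AFMID, the step before them. The sequences are from RefSeq on GRCh38.p14, run 5′ to 3′ on the gene's strand, and cover 250 bases before and 50 bases after an annotated start. Capitals mark matches to any of 7 short motifs, searched on both strands and chosen with these data known.
KMO: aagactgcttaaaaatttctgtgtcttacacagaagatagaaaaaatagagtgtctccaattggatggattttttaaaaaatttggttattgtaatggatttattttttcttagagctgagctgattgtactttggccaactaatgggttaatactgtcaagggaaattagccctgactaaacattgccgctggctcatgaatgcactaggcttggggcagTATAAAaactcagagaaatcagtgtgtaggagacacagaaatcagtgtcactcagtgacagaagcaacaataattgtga
KYNU: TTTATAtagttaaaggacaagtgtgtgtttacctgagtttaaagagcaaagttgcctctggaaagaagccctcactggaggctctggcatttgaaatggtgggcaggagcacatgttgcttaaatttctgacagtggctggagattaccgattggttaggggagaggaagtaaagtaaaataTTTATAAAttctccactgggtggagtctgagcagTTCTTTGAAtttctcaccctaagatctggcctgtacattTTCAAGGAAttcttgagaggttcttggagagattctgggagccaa
AFMID: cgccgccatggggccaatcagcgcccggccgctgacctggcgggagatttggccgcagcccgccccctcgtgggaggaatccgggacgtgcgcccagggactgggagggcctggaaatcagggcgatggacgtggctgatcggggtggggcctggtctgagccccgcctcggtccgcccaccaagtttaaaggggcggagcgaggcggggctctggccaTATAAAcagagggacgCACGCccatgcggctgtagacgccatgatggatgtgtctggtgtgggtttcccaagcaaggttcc
The windows are chr1:241532128-241532427 for KMO, chr2:142877414-142877713 for KYNU and chr17:78187112-78187411 for AFMID, all on the plus strand. One motif was TATAAA, the core of the TATA box. Another was TTCNNNGAA, the core of the gamma-activated site that STAT factors bind. GCGTG is the core of the site bound by the aryl hydrocarbon receptor. TGANTCA is the AP-1 site. The E-box core is CACGTG. The core of an E2F site was given as TTTNGCGC, and the interferon-stimulated response element is given by name alone. A match describes letters in a window and does not show a bound factor.

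The KMO and KYNU windows were both poor in G and C. The KMO window was 36.7% G or C, below all but 6.11% of 35116 RefSeq windows, and the KYNU window was 42.3% G or C, below all but 15.5% of them. Each held 1 CpG, as did the window of TDO2 (41.3% G or C), against 25 CpGs in the window of AFMID, 22 in that of KYAT3 and 37 in that of HAAO, and a median of 14 over all windows. KMO had a TATAAA match that began 29 bases before the start, and AFMID had one 31 bases before it. TATAAA occurs in 11.5% of all windows. KYNU had matches to TATAAA and 2 matches to TTCNNNGAA, one beginning 34 bases before the start and the other at base 6 after it, a motif found in 7.66% of all windows. Its TATAAA matches on the 2 strands overlap in the run TTTATAAA. AFMID also matched GCGTG on the reverse strand, which 36.5% of windows do, and the TDO2 window matched TATAAA and TGANTCA (7.71% of windows hold the second). KYAT1 matched the interferon-stimulated response element core once (3.57% of windows). No window of KYAT3, HAAO or QPRT held any of the 7 motifs. The E-box core, in 7.26% of all windows, and the E2F core, in 1.79%, were in no member's window that was read. Where a gene has several RefSeq windows, as KYAT1 (3) and QPRT (2) do, the one nearest to the gene's annotated start was read. The RefSeq start used for TDO2 lies 48958 bases from the start of the gene as GENCODE annotates it. This distance is 244 bases for KMO, 166 for KYNU, 45 for AFMID and 324 for KYAT3. Motif positions count from the RefSeq start.

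Across the pathway, transcripts of KMO, IDO1, QPRT and TDO2 were higher with abemaciclib, those of KYNU, KYAT1 and AFMID were lower, KYAT3 did not pass the threshold and HAAO was close to undetected. In the edgeR quasi-likelihood test over 17207 genes, 4 of the 8 members that passed the filter on low counts were called higher (38.0% of all tested genes were) and 3 lower (39.3% of all tested genes), so 7 of 8 were called where the background is 77.3%. The median log2 fold change of the 8 was 0.34, against -0.01 over all tested genes. In 7 of the 8, both abemaciclib libraries lay on one side of both untreated libraries, as they did in 87.9% of tested genes. With mitochondrially encoded genes removed, 4 members were again called higher and 3 lower, beside 13280 of 17192 genes called. Because the set was proposed with this contrast known, these differences and calls are descriptions, and no p-value is given for them.

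**Figure D1:**
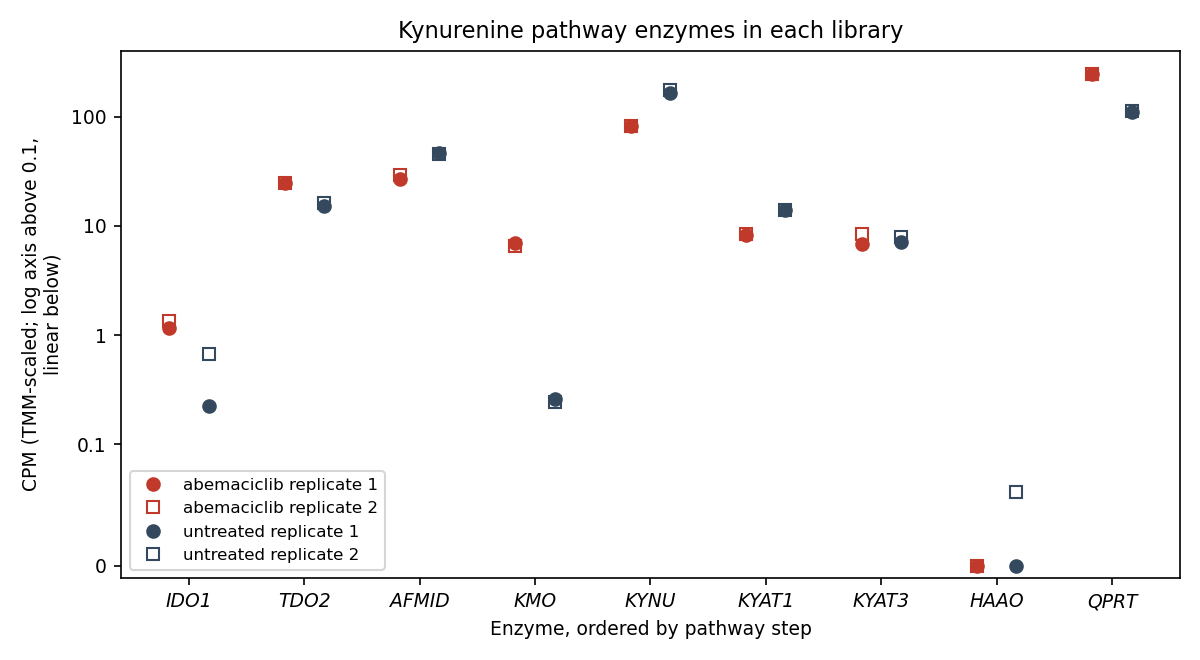
CPM of each enzyme (TMM-scaled; log axis above 0.1 and linear below) in each of the 4 libraries, with abemaciclib points left of untreated points and replicate 2 as open squares. KMO lies at 6.55 to 6.98 CPM with abemaciclib and 0.244 to 0.259 CPM in untreated libraries, while KYNU lies at 81.2 to 82.2 CPM with abemaciclib and 165 to 175 CPM in untreated libraries.

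At the entry step, most of the transcript level was that of TDO2. TDO2, the tryptophan dioxygenase best known from liver (chromosome 4, 155854738 to 155920406, plus strand, GRCh38 and GENCODE 29 as for the other genes), had 24.5 and 24.7 CPM in abemaciclib libraries, against 15.3 and 16.1 CPM in untreated ones. Both abemaciclib libraries lay above both untreated ones, at a log2 fold change of 0.65 ± 0.08 (SE). IDO1, the dioxygenase induced by interferon gamma (chromosome 8, 39902275 to 39928444, plus strand), was low throughout, with 28 and 46 counts (1.16 and 1.36 CPM) in abemaciclib libraries and 6 and 22 counts (0.222 and 0.672 CPM) in untreated ones. The groups did not overlap, but the untreated libraries differed from each other by a larger factor than the nearer one did from either abemaciclib library. Its log2 fold change was 1.45 ± 0.40, and it was 0.91 ± 0.46, no longer past the threshold, without untreated replicate 1 and 2.49 ± 0.63 without untreated replicate 2. DESeq2 did not call it either (1.49 ± 0.70). IDO2, the third enzyme of this step, did not pass the filter, with 0.0415 and 0.0295 CPM in abemaciclib libraries and 0.0741 and 0 CPM in untreated ones, all under the 0.0886 to 0.125 CPM that 3 counts make in these libraries.

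On levels per kilobase, scaled to a common total per library, TDO2 exceeded IDO1 by 13.0 and 11.3 times in abemaciclib libraries and by 42.5 and 14.8 times in untreated ones. With transcript lengths matched to RefSeq in place of merged exons, the same ratios were 25.9 and 22.4 with abemaciclib and 84.7 and 29.5 untreated. The order of the pair was the same in all 4 libraries and with both lengths. TDO2 overlaps ASIC5 on the opposite strand, which had at most 0.291 CPM, and the 3 genes that overlap IDO1 had 0 CPM in every library.

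AFMID, the formamidase that releases kynurenine from its formyl precursor (chromosome 17, 78187317 to 78207701, plus strand), had 26.7 and 29.5 CPM in abemaciclib libraries, against 46.2 and 45.3 CPM in untreated ones. All values with abemaciclib were below all untreated values, at a log2 fold change of -0.70 ± 0.06. The gene overlaps no other annotated gene in GENCODE 29.

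KMO, the flavin-dependent monooxygenase of the mitochondrial outer membrane (chromosome 1, 241532134 to 241595642, plus strand), stood furthest apart. It had 168 and 222 counts (6.98 and 6.55 CPM) in abemaciclib libraries, against 7 and 8 counts (0.259 and 0.244 CPM) in untreated ones. Mean levels were 6.77 ± 0.300 CPM with abemaciclib and 0.252 ± 0.0105 CPM untreated (SD, n = 2 each), a log2 fold change of 4.73 ± 0.26, or 26.4-fold. By this value KMO was 82nd from the top of the 17207 tested genes. DESeq2 gave 4.76 ± 0.48, a larger SE than that of edgeR. The untreated side rests on 15 counts in all, so the size of the fold is less certain than the edgeR SE alone implies. Genes called higher by at least 16-fold made up 0.843% of those tested. KMO overlaps OPN3 on the opposite strand, which had 56.2 and 58.9 CPM in abemaciclib libraries and 41.7 and 37.9 CPM in untreated ones. The kit keeps the strand of each RNA, but whether the counting used it is not stated in the sources used here. How far OPN3 reads enter the KMO counts was not tested.

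Because KMO is known from microglia, markers of macrophages and microglia were read beside it. Of 16 such markers, 5 passed the filter, 2 of them higher with abemaciclib and 3 lower. Their summed level was 1246 and 1215 CPM in abemaciclib libraries and 715 and 708 CPM in untreated ones, nearly all of it from CD68, a lysosomal protein, and TMEM119. CD68 had 1100 and 1073 CPM with abemaciclib and 513 and 503 CPM untreated, and TMEM119 138 and 135 CPM with abemaciclib and 190 and 192 CPM untreated. CSF1R, the receptor of a macrophage growth factor, was lower with abemaciclib (5.77 and 5.31 CPM, against 10.9 and 11.5 CPM untreated). PTPRC, the leukocyte marker CD45, had 0.748 and 0.413 CPM with abemaciclib and 0.148 and 0.0917 CPM untreated. The 13 markers other than CD68, TMEM119 and CSF1R summed to 1.87 and 1.65 CPM with abemaciclib and 1.52 and 1.83 CPM untreated. This split was made after their values were seen. PTPRC, which was higher with abemaciclib, is among the 13, so their sum does not show how each marker differed. AIF1 was at 0 counts in all 4 libraries. The part of such cells in the KMO values was not tested.

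KYNU, the kynureninase that acts on kynurenine and on the product of KMO (chromosome 2, 142877498 to 143055832, plus strand), differed the other way. It had 82.2 and 81.2 CPM in abemaciclib libraries, against 165 and 175 CPM in untreated ones, and the groups lay far apart relative to the gap between replicates. Mean levels were 81.7 ± 0.695 CPM with abemaciclib and 170.4 ± 7.03 CPM untreated (SD, n = 2 each), and the log2 fold change was -1.06 ± 0.04. Changes of at least 2-fold in either direction were called in 31.2% of tested genes. The only overlapping annotation, a processed pseudogene on the opposite strand, had 0 CPM in every library.

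KMO and KYNU thus drew closer in level. On levels per kilobase of merged exons, KYNU exceeded KMO by 3.98 and 4.18 times in abemaciclib libraries, against 215.5 and 242.3 times in untreated ones. The merged exons of KYNU span 17600 bases because GENCODE lists a transcript of 15316 bases, while its RefSeq-matched transcripts have a median of 1772 bases. With those lengths the ratio was 35.0 and 36.8 with abemaciclib and 1894 and 2129 untreated. KYNU was above KMO in every library with either length.

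**Figure D2:**
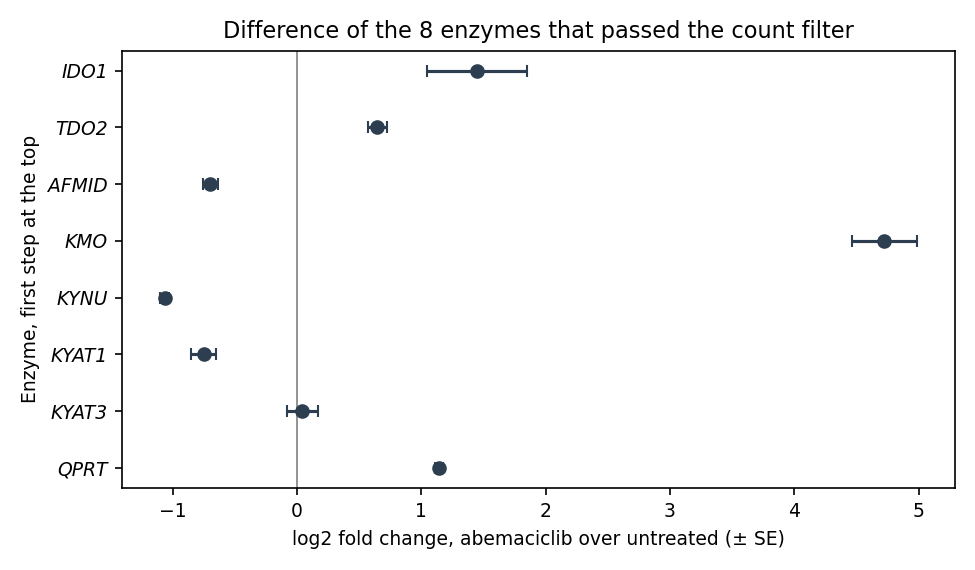
Log2 fold change (abemaciclib over untreated, ± SE worked out from the F value of the edgeR test) of the 8 enzymes that passed the filter, first step at the top. KMO lies furthest to the right at 4.73, KYNU furthest to the left at -1.06, and KYAT3 at 0.04 sits on the zero line.

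The aminotransferases that make kynurenic acid differed in direction. KYAT1 (chromosome 9, 128832942 to 128882494, minus strand) had 8.18 and 8.47 CPM in abemaciclib libraries, against 14.0 and 14.1 CPM in untreated ones, a log2 fold change of -0.75 ± 0.10 with no overlap between groups. KYAT3 (chromosome 1, 88935773 to 88992953, minus strand) had 6.85 and 8.47 CPM with abemaciclib and 7.04 and 7.94 CPM untreated. Its groups overlapped, and the log2 fold change of 0.04 ± 0.13 changed sign with 1 library left out, to -0.13 without abemaciclib replicate 2 and -0.04 without untreated replicate 1. AADAT, the aminotransferase also called KAT II and no member of the set, rose with abemaciclib (10.4 and 9.62 CPM, against 6.78 and 7.21 CPM untreated, log2 fold change 0.51 ± 0.11, edgeR adjusted p = 1.75e-04). GOT2, the mitochondrial aspartate aminotransferase that can also act on kynurenine, rose as well (59.0 and 55.4 CPM, against 37.2 and 38.3 CPM untreated, 0.59 ± 0.05, edgeR adjusted p = 5.1e-12). Of the 4 aminotransferases, AADAT and GOT2 were thus higher, KYAT1 was lower and KYAT3 was not called.

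KYAT1 and KYAT3 were the members with expected counts that were not whole, as RSEM gives where it divides reads between genes. KYAT3 shares its strand with RBMXL1, a gene inside its span, which had 4.03 and 3.96 CPM with abemaciclib and 5.30 and 4.98 CPM untreated. KYAT1 overlaps LRRC8A on the opposite strand, which had 242.5 and 242.6 CPM with abemaciclib and 104.1 and 104.4 CPM untreated, the direction opposite to that of KYAT1. The part of these neighbours in the values was not tested. Per kilobase of merged exons KYAT1 was at 0.759 and 0.637 times KYAT3 with abemaciclib and at 1.27 and 1.13 times untreated. With RefSeq-matched lengths the ratios were 1.12 and 0.944 with abemaciclib and 1.87 and 1.67 untreated, so the order of the pair depended on the length in abemaciclib replicate 1 and was the same with both lengths in the other 3 libraries.

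HAAO, the dioxygenase that makes the direct precursor of quinolinic acid (chromosome 2, 42767089 to 42792593, minus strand), had 0 counts in both abemaciclib libraries and 0 and 2 counts in the untreated ones. It did not pass the filter, and at this depth 3 counts correspond to 0.0886 to 0.125 CPM per library. No fold is given, since both groups lay at or under that floor, which covers counting error only. ACMSD, which diverts the same intermediate away from quinolinic acid, had 0 counts in all 4 libraries.

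QPRT, which turns quinolinic acid into a precursor of NAD (chromosome 16, 29679008 to 29698699, plus strand), had 244 and 247 CPM in abemaciclib libraries, against 109 and 113 CPM in untreated ones. Mean levels were 245.4 ± 2.66 CPM with abemaciclib and 111 ± 2.48 CPM untreated (SD, n = 2 each), a log2 fold change of 1.14 ± 0.03. GENCODE 29 places another protein-coding gene, AC009086.2, over QPRT on the same strand. Its identifier is not among the genes counted in these libraries, so it has no values here.

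On levels per kilobase of merged exons QPRT made up 74.7% and 73.8% of the summed level of the 9 enzymes in abemaciclib libraries, against 49.4% and 49.3% in untreated ones. KYNU made up 5.21% and 5.01% with abemaciclib and 15.5% and 15.9% untreated. With RefSeq-matched lengths the share of QPRT was 66.0% and 65.8% with abemaciclib and 34.9% and 34.6% untreated, and that of KYNU 18.4% and 17.8% with abemaciclib and 43.5% and 44.3% untreated. QPRT was then below KYNU in untreated libraries (0.802 and 0.781 times its level) and above it with abemaciclib (3.59 and 3.69 times). With merged exons QPRT exceeded KYNU in every library, by 14.3 and 14.7 times with abemaciclib and 3.20 and 3.11 times untreated. KMO reached at most 1.31% of the summed level in any library with either length.

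**Figure D3:**
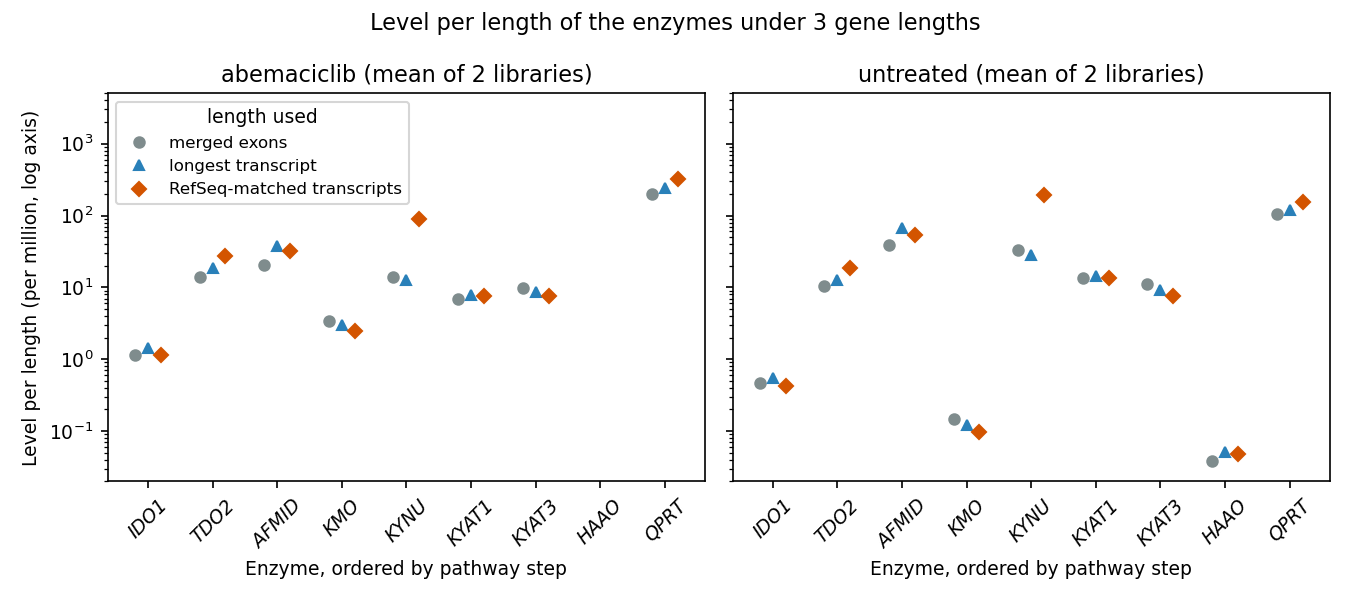
Mean level per kilobase, scaled to a common total per library (log axis), of each enzyme in abemaciclib libraries (left) and untreated libraries (right) under 3 gene lengths; a level of 0 is not drawn, as for HAAO with abemaciclib. KYNU depends most on the length, at 13.8 or 88.5 with abemaciclib and 33.6 or 193 untreated for merged exons or RefSeq-matched transcripts.

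By a fixed rule, the genes whose pattern was most like that of KMO over the 4 libraries were FCRLA, MREG and ABCB5, at Euclidean distances of 0.0928, 0.141 and 0.145 in log2 CPM (edgeR, prior count of 2) centred on each gene's mean. FCRLA had 28.4 and 26.2 CPM with abemaciclib and 1.33 and 1.25 CPM untreated, MREG 65.1 and 64.8 CPM with abemaciclib and 3.37 and 2.87 CPM untreated, and ABCB5 1.54 and 1.51 CPM with abemaciclib and 0 CPM in both untreated libraries. With a prior count of 0.5, chosen after seeing the data, 0 of these 3 genes were among the 3 nearest, so the likeness to KMO depends on that setting. The nearest to KYNU, the member furthest down, were SLC9A5, FURIN and NRXN2, at 0.00644, 0.00887 and 0.0176, and all 3 were the nearest with either prior count.

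Genes around the pathway were read from 8 lists that hold 93 genes. Of the 75 listed genes that passed the filter, 32 rose, 36 fell and 7 did not pass the threshold (edgeR, adjusted p under 0.05). That is 90.7% called, against 77.3% of all tested genes. The median log2 fold change of the 75 was -0.07, against -0.01 over all tested genes. The lists were chosen with earlier results of these data known. Most genes named from them were picked for an adjusted p under 0.05 and a large change. Shares, counts and p-values of list genes are therefore descriptions too.

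Entry of tryptophan and exchange of kynurenine run through amino acid transporters, and 6 of the 8 transporter genes passed the filter, 3 rising and 3 falling. SLC7A5, the large neutral amino acid transporter LAT1, fell to 26.0 and 23.2 CPM with abemaciclib, against 101 and 103 CPM untreated (log2 fold change -2.06 ± 0.05, edgeR adjusted p = 3.33e-26). The related LAT2 gene SLC7A8 rose to 378 and 380 CPM with abemaciclib, against 130.4 and 136 CPM untreated (1.50 ± 0.03, edgeR adjusted p = 2.64e-27). SLC16A10, an aromatic amino acid transporter, fell (-2.95 ± 0.33, edgeR adjusted p = 1.72e-09), as did SLC36A4, which carries tryptophan and proline (-1.34 ± 0.10, edgeR adjusted p = 5.06e-13). The median of the list was -0.50.

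Other uses of tryptophan and kynurenine were covered by 2 lists. All 4 tested of the 6 other enzymes of kynurenine metabolism were called, 3 higher and 1 lower, with a median of 0.51. They include AADAT, GOT2 and IL4I1, a secreted amino acid oxidase that acts on tryptophan, which rose with abemaciclib (14.1 and 12.04 CPM, against 8.89 and 9.29 CPM untreated, 0.51 ± 0.10, edgeR adjusted p = 5.73e-05). Of 10 genes for other fates of tryptophan 5 were tested, 3 of them higher and 2 lower, with a median of 0.56. The cytosolic and mitochondrial tryptophanyl-tRNA synthetases WARS1 (0.56 ± 0.03, edgeR adjusted p = 2.08e-16) and WARS2 (1.17 ± 0.11, edgeR adjusted p = 6.57e-11) rose, and the amine oxidase MAOA fell (-0.91 ± 0.07, edgeR adjusted p = 2.28e-13).

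NAD has other sources than QPRT. Of the 12 genes of NAD synthesis 10 were tested, of which 5 were higher, 4 were lower and 1 was not called, and the median log2 fold change was 0.10. NAMPT, the enzyme that sets the rate of NAD recycling from nicotinamide, fell to 294.5 and 279.9 CPM with abemaciclib, against 1341 and 1552 CPM untreated (-2.33 ± 0.11, edgeR adjusted p = 7.91e-04). QPRT and NAMPT, which feed the same coenzyme by different routes, thus differed in opposite directions. The nuclear adenylyltransferase NMNAT1 (0.89 ± 0.08, edgeR adjusted p = 2.42e-11), the NAD kinase NADK (0.78 ± 0.05, edgeR adjusted p = 1.3e-15) and the mitochondrial NAD carrier SLC25A51 (1.29 ± 0.09, edgeR adjusted p = 2.04e-14) rose.

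All 16 genes of NAD consumption were tested, of which 8 were higher, 7 were lower and 1 was not called, and the median was 0.06. PARP1, which uses NAD to mark sites of DNA damage, rose to 108 and 112 CPM with abemaciclib, against 54.4 and 58.8 CPM untreated (0.96 ± 0.04, edgeR adjusted p = 2.28e-19). The mitochondrial deacylases SIRT3 (-0.95 ± 0.08, edgeR adjusted p = 8.79e-13) and SIRT4 (-0.92 ± 0.26, edgeR adjusted p = 2.11e-03) fell, as did BST1, a surface enzyme that breaks down NAD (-1.14 ± 0.21, edgeR adjusted p = 1.8e-05). DESeq2 did not call SIRT4 (adjusted p = 0.0761).

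Of 13 genes of the aryl hydrocarbon receptor list 10 were tested, of which 4 were higher, 5 were lower and 1 was not called, and the median was -0.08. The receptor gene AHR fell to 18.5 and 16.7 CPM with abemaciclib, against 39.3 and 39.3 CPM untreated (-1.16 ± 0.07, edgeR adjusted p = 2.68e-16). The target gene TIPARP rose (33.2 and 35.3 CPM, against 22.1 and 22.0 CPM untreated, 0.64 ± 0.06, edgeR adjusted p = 1.97e-10). Other genes of the list called higher varied widely in size. They were CYP1B1 (0.13 ± 0.03), NQO1 (0.33 ± 0.04) and CYP1A1 (2.13 ± 0.50, on 44 counts with abemaciclib and 10 untreated). The repressor gene AHRR fell (-1.07 ± 0.22, edgeR adjusted p = 6.96e-05), but a second identifier in the files carries the same name, so the reads of the pair may have been divided.

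Regulators that are known to act on IDO1 or TDO2 include activators and repressors. Of the 16 tested (of 18 listed), 12 were lower, 2 were higher and 2 were not called, at a median of -0.55. Of all tested genes 39.3% were lower, but this list was chosen with earlier results of these data known. PTGS2, the cyclooxygenase whose product can sustain IDO1, fell to 4.15 and 4.43 CPM with abemaciclib, against 263 and 298 CPM untreated (-6.02 ± 0.10, edgeR adjusted p = 6.28e-10). SOCS3, which targets IDO1 protein for breakdown, fell (-3.48 ± 0.04, edgeR adjusted p = 1.8e-34), as did TGFB1, the growth factor TGF-beta1 (-1.18 ± 0.03, edgeR adjusted p = 3.03e-24). IFNG, the gene of interferon gamma, had 0 counts in all 4 libraries.

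KYNU and the aminotransferases depend on pyridoxal phosphate and KMO on FAD, and 8 of the 10 genes of cofactor supply were tested, of which 4 were higher, 2 were lower and 2 were not called, and the median was 0.45. PDXK, the kinase that phosphorylates vitamin B6, fell (-1.08 ± 0.03, edgeR adjusted p = 2.67e-24). The riboflavin kinase RFK (1.05 ± 0.09, edgeR adjusted p = 7.69e-12) and the mitochondrial carrier SLC25A32, linked to FAD import (1.00 ± 0.07, edgeR adjusted p = 6.2e-14), rose.

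**Figure D4:**
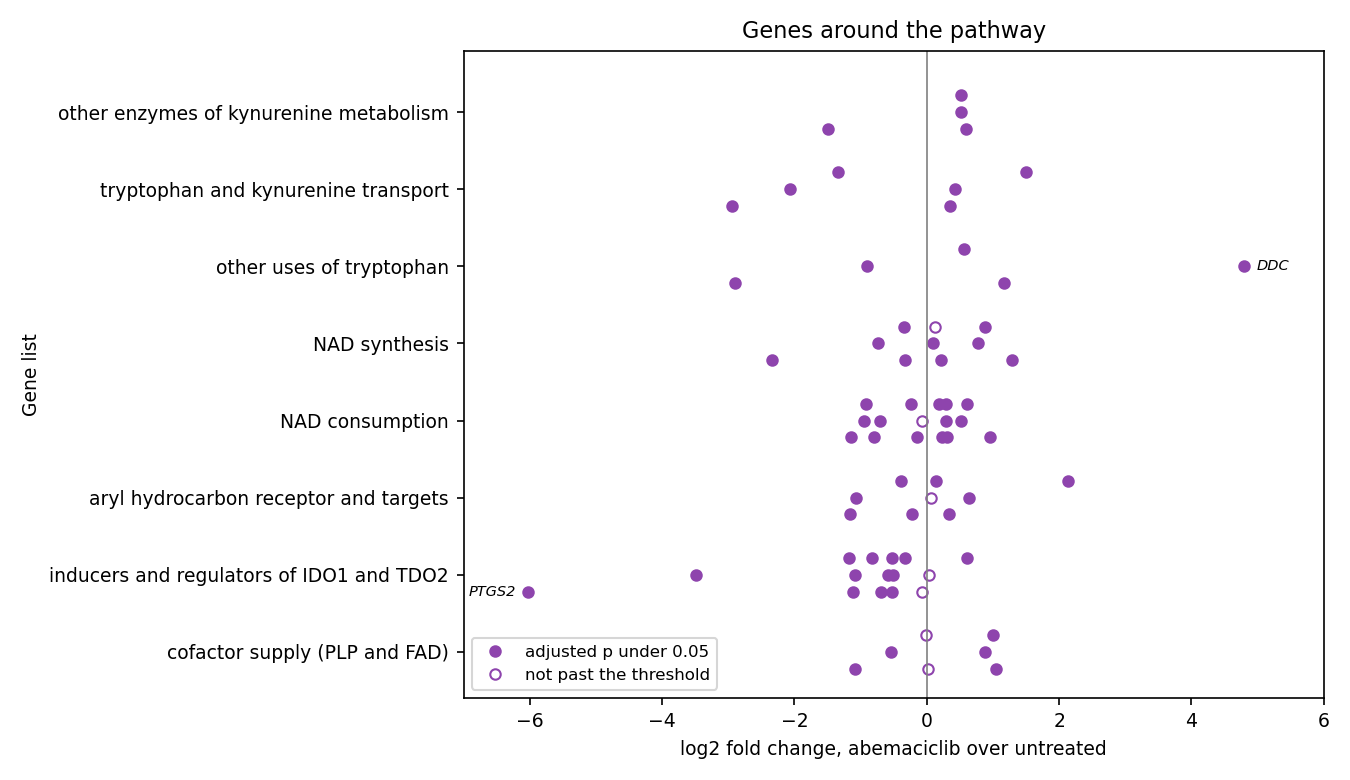
Log2 fold change (abemaciclib over untreated) of tested genes in each of the 8 lists around the pathway, without 3 genes that are not reported here; filled points have an edgeR adjusted p under 0.05, open points do not, and PTGS2 and DDC are named. PTGS2 at -6.02 stands apart in its list, and the point for DDC rests on 18 and 15 counts with abemaciclib against 0 and 1 untreated, so its position depends on the fit.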

How the data were processed

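RNA was measured in 4 libraries, grouped and numbered by their titles. The deposited values are expected counts (estimated reads per gene, not scaled), per the file headers. STAR 2.7.2b and RSEM 1.3.1 were used on GRCh38 per the submitters' processing notes; annotation release and strand setting are not given in the sources used here. Expected counts were rounded and tested with edgeR 4.0.16 (R 4.3.3) by its quasi-likelihood test (two-sided, filterByExpr, TMM, robust, group alone) with Benjamini-Hochberg adjustment over 17207 genes. CPM values are TMM-scaled. For edgeR, SE is the absolute log2 fold change divided by the square root of the F value. It does not carry the degrees of freedom that enter the p-value. The script was tested on simulated data in which few genes differed, none of them low in counts. That test does not cover data with as many differences as these, or genes of low count. Lengths and coordinates came from GENCODE 29, which held 96.4% of the identifiers, and promoters from RefSeq. Levels per length used merged exons.

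Members and lists were chosen with earlier results of these data known. Named genes were the members, up to 4 called genes per list (largest change, at least 1 CPM, groups not overlapping), AHR, IDO2, AADAT, GOT2 and ACMSD, and the 3 genes nearest in pattern to the members furthest up and down. Some genes that this rule picks are not reported here. Other genes named were chosen after their values were seen. Alternatives were other scalings, no filter, DESeq2 1.42.0, a replicate block, each library left out, mitochondrial genes removed and other lengths. Protein sequences and the IDO1 promoter were not used here.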

Additional observations from a re-analysis of the deposited data

How the results depend on the processing

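Of 380 refits of single genes (38 genes under 10 alternatives), 375 kept the direction and the side of the threshold. IDO1 was no longer past it without untreated replicate 1 (0.91) and with DESeq2 (1.49) and ranged from 0.91 to 2.49 over the alternatives. SIRT4 missed it with DESeq2. KYAT3, which was not called, changed sign without abemaciclib replicate 2 (-0.13) and without untreated replicate 1 (-0.04), and ranged from -0.13 to 0.19. KMO ranged from 4.68 to 4.78 and KYNU from -1.10 to -1.01. Leaving out 1 library left 3 to 4 members higher and 3 lower, and 12310 to 12875 genes called of those tested. DESeq2 called 10692 of the 21250 genes it gave an adjusted p, a base other than the 17207 of edgeR, and 3 members on each side. Removing mitochondrially encoded genes left 4 members higher and 3 lower, beside 13280 of 17192 genes called.

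With the replicate block 13108 of 17207 genes were called in place of 13299, and again 4 members were higher and 3 lower. Deviations of same-numbered libraries had a correlation of -0.00022 over genes. The labels do not say what the numbers share. With so few libraries this correlation cannot decide whether same-numbered libraries share a culture or batch.

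Levels per length depended on the length. With the longest annotated transcript 9 of the 9 enzymes held their rank in abemaciclib libraries and 7 in untreated ones, and with RefSeq-matched transcripts, chosen after seeing the data, 4 with abemaciclib and 3 untreated. KYNU, whose merged exons are far longer than its RefSeq-matched transcripts, was not the only enzyme to change rank. Depth limits HAAO, IDO2 and ACMSD, which lay at or below 3 counts per library.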
